A study of Mus musculus with 6 samples.

Results

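The core pluripotency factors described here are 8 genes that mark the undifferentiated state of mouse embryonic stem (ES) cells: Pou5f1, Sox2, Nanog, Sall4, Lin28a, Utf1, Dppa4 and Dppa5a. Their members on the array are all probe sets annotated with one of these symbols and no other. This gave 12 probe sets of 45101, and all 12 were bright enough to be among the 37950 tested. The 8 genes are among 16706 genes with a tested probe set of a single symbol. Sall4 and Lin28a each had 2 probe sets, Utf1 had 3 and the other genes had 1. The 6 Affymetrix arrays came from ES cells labelled NcGFP ki/ki (homozygous knock-in), NcGFP ki/+ (heterozygous knock-in) and wild type W4, with 2 arrays per genotype. NcGFP is not explained in the labels, and it is read here, from knowledge of the study, as an N-cadherin and green fluorescent protein fusion placed in the E-cadherin gene Cdh1. The design text gives independent experiments for each genotype, but the labels do not say whether the knock-in arrays came from separate clones. All cells were grown in serum with the cytokine LIF on diluted plates labelled EMFI, read here as embryonic fibroblast feeders, so all 3 genotypes share these conditions and their RNA may include feeder RNA.

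Pluripotency in the mouse rests on a small circuit of transcription factors that bind their own and each other's regulatory DNA. OCT4, the product of Pou5f1, and SOX2 bind side by side at composite sites, and NANOG joins them at many of the same places. Around this circuit stand SALL4, a zinc finger factor that acts with OCT4, the RNA-binding protein LIN28A, which blocks maturation of let-7 microRNAs, and UTF1, DPPA4 and DPPA5A, whose genes are used as markers because they are switched off when ES cells differentiate.

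Promoter windows of Nanog, Sox2 and Pou5f1 are shown because these factors regulate each other, and because Nanog had a wider range over the arrays than Sox2 and Pou5f1. A link between motif and range was not tested. RefSeq windows (GRCm38.p6, 250 bases before to 50 after the gene start, plus strand) were found for 5 of the 8 genes, and none is shown for Sall4, Dppa4 and Dppa5a. Capitals mark matches on either strand to the composite OCT4 and SOX2 motif, CATTGT followed by any base and then ATGCAAA, or to its octamer core, ATGCAAA, alone.
Nanog (chr6:122707239-122707538): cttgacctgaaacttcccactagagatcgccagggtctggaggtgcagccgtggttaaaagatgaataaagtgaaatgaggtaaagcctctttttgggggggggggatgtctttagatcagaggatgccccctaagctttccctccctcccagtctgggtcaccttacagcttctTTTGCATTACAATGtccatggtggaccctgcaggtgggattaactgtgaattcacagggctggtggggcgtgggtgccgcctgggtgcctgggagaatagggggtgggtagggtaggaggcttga
Sox2 (chr3:34649745-34650044): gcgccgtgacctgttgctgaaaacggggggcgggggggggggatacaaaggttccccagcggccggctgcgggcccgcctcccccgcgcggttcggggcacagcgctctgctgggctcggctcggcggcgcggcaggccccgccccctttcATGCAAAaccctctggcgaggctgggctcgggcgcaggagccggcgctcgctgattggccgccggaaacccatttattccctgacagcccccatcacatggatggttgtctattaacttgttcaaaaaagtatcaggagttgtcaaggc
Pou5f1 (chr17:35505782-35506081): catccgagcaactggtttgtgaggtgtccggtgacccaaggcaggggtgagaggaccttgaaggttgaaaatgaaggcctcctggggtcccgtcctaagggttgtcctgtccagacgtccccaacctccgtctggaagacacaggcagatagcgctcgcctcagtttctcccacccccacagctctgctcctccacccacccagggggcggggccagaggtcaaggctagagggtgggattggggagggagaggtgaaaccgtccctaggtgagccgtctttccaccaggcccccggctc
The Nanog window holds the composite motif on the minus strand at bases -75 to -62 from the gene start. Of 32851 promoter windows of this length, 2 (0.00609%) hold it, and both are windows of Nanog. The octamer core stands in the Nanog match and once in the Sox2 window, at bases -99 to -93, and in 4.63% of all windows. The windows of Pou5f1, Lin28a and Utf1 hold no match to either. A match describes the letters and not a bound site. The lack of a match covers only these spellings inside the window, not variants or sites further away.

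Several arrays stood apart in ways that touch the results. Feeder fibroblast markers (19 of 20 measured, among them the collagen gene Col1a1) summed to an intensity of 24021 in ki/ki replicate 1 and 73018 in ki/ki replicate 2. In ki/+ they summed to 8492 and 16551, and in wild type to 24169 and 27750, in the order of the replicate numbers, which holds for all pairs of values given here. The 1 marker without a tested probe set was Fbn1. The log2 intensity of the Y-linked gene Eif2s3y was 5.33 and 9.13 in ki/ki, 9.49 and 4.60 in ki/+, and 5.16 and 5.33 in wild type, so the arrays of each knock-in genotype differed. The mean log2 intensity over 3 control probe sets of 18S ribosomal RNA lay between 11.12 and 11.57 in the knock-in arrays and 7.22 and 7.12 in wild type. This split coincided with knock-in against wild type, so it cannot be told apart from genotype in any comparison with wild type below. Cdh1 was at 9.77 and 11.09 in ki/ki, 11.66 and 10.62 in ki/+, and 12.17 and 12.13 in wild type. That ki/ki replicate 2 lay above ki/+ replicate 2 goes against the order of the labels, but the position of the Cdh1 probe set relative to the knock-in is not known here, so it is no check of them.

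The transcripts of the core factors were present in every array. In the fit to all 6 arrays no probe set, of a member or not, passed the test's threshold between genotypes. In limma's moderated test with Benjamini-Hochberg adjustment over all probe sets, 0 of 12 member probe sets passed an adjusted p of 0.05 for ki/ki against wild type, where 0% of all 37950 probe sets passed. The same count of 0 of 12, beside 0% of all, held for ki/+ against wild type, for ki/ki against ki/+, and for the mean of both knock-in genotypes against wild type. Because 0% of all probe sets passed, the count for the members was fixed, and it says nothing about them in particular. At an unadjusted p below 0.05 limma gave 1 of 12 for ki/ki against wild type (8.94% of all), 1 of 12 for ki/+ (10.5%), 2 of 12 for ki/ki against ki/+ (10.3%) and 1 of 12 for both knock-in genotypes (9.69%). These shares of the members lie near the background. Both comparisons with wild type use the same wild type arrays.

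The median absolute log2 difference of the 12 probe sets was 0.09 for ki/ki against wild type, against 0.16 over all tested probe sets. It was 0.15 against 0.17 for ki/+ and wild type, and 0.13 against 0.17 for ki/ki and ki/+. Between the replicates of a genotype the members' median absolute log2 difference was 0.37 in ki/ki, 0.23 in ki/+ and 0.05 in wild type, where all probe sets gave 0.30, 0.17 and 0.11. These are differences between single arrays, whereas the differences between genotypes are between means of 2 arrays, so the sizes cannot be set against each other directly. Set against all tested probe sets by their SD over the 6 arrays, Dppa4, Dppa5a, Sox2 and the brighter Sall4 probe set were among the steadier ones, with a smaller SD in only 17.2%, 20.4%, 23.7% and 23.8% of all. Pou5f1 stood at 35.2%, whereas Nanog stood at 91.3%, 1424153_s_at of Sall4 at 96.3% and 1421749_at of Lin28a at 97.5%. Lin28a 1437752_at stood at 54.0%, and the Utf1 probe sets at 42.4% (1416899_at), 92.2% (1443786_at) and 13.2% (the dim 1458333_x_at). The ranking pools probe sets of all intensities, so bright members were not set against others of like brightness.

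**Figure D1:**
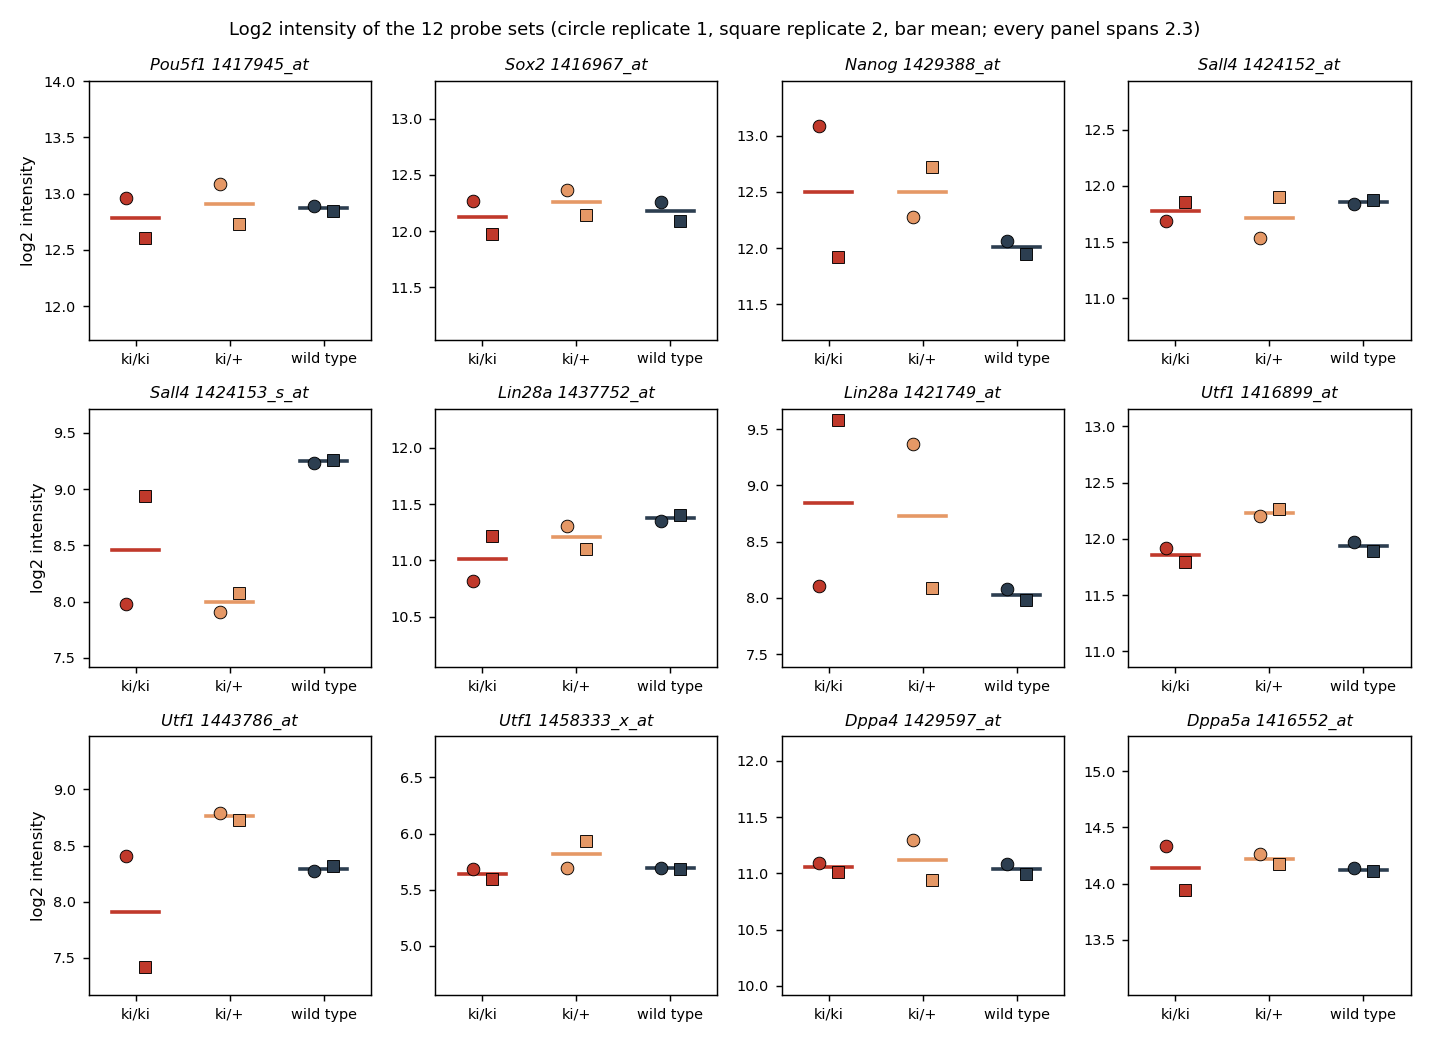
Log2 intensity (y axis, with the same span in every panel) of the 12 member probe sets in ki/ki, ki/+ and wild type ES cells, with a circle for replicate 1, a square for replicate 2 and a bar for the mean of each genotype. The wild type arrays lie close together throughout, while Nanog, 1421749_at of Lin28a, 1424153_s_at of Sall4 and 1443786_at of Utf1 span more than 1 unit.

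Pou5f1, which encodes the POU domain factor OCT4 that ES cells cannot do without, had log2 intensities of 12.96 and 12.60 in ki/ki, 13.08 and 12.73 in ki/+, and 12.89 and 12.85 in wild type. In each knock-in genotype one array lay above and the other below both wild type arrays. The log2 difference from wild type was -0.09 for ki/ki (95% interval -0.55 to 0.38, limma adjusted p = 0.933) and 0.04 for ki/+ (-0.43 to 0.50, adjusted p = 0.970). That between ki/ki and ki/+ was -0.12 (-0.59 to 0.34, adjusted p = 0.855). A change as large as 2-fold (1 on the log2 scale) lies outside each of these intervals, which are not adjusted for the number of probe sets. RefSeq lists transcribed pseudogenes of Pou5f1, and the probe set may also read them.

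Sox2, whose product is OCT4's HMG box partner, had log2 intensities of 12.27 and 11.98 in ki/ki, 12.37 and 12.15 in ki/+, and 12.26 and 12.09 in wild type. The 3 genotypes overlapped. The difference was -0.05 for ki/ki against wild type (95% interval -0.47 to 0.37, limma adjusted p = 0.963) and 0.08 for ki/+ against wild type (-0.34 to 0.50, adjusted p = 0.913). For ki/ki against ki/+ it was -0.13 (-0.55 to 0.29, adjusted p = 0.824).

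Nanog, a homeodomain factor whose level is known to vary from cell to cell in serum and LIF, was the gene with the widest range among the brightest probe sets of the 8 genes. Its log2 intensity was 13.08 and 11.92 in ki/ki, 12.28 and 12.72 in ki/+, and 12.06 and 11.95 in wild type. The array ki/ki replicate 1 was the highest and ki/ki replicate 2 the lowest of all 6, while both ki/+ arrays lay above both wild type arrays. The genotype means were 12.50 ± 0.82 in ki/ki, 12.50 ± 0.31 in ki/+ and 12.01 ± 0.08 in wild type (SD, n = 2 each). Nanog differed from wild type by 0.50 in ki/ki (SE 0.37, 95% interval -0.39 to 1.38, limma adjusted p = 0.760) and by 0.49 in ki/+ (SE 0.37, -0.40 to 1.38, adjusted p = 0.691), and ki/ki and ki/+ differed by 0.01 (-0.88 to 0.89, adjusted p = 0.997).

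The size of each Nanog difference from wild type depended on single arrays. For ki/ki against wild type it was -0.09 without ki/ki replicate 1 and 1.08 without ki/ki replicate 2. For both knock-in genotypes against wild type the difference was 0.49 (limma adjusted p = 0.727). Without ki/ki replicate 2, the array with the most feeder marker signal, that difference was 0.78. Without ki/ki replicate 1 it was 0.20. For ki/+ against wild type the difference was 0.71 without ki/+ replicate 1 and 0.27 without ki/+ replicate 2. Within ki/ki and within wild type the replicate with more feeder marker signal had less Nanog, whereas within ki/+ it had more. The part of the feeder markers in these values was not tested, and fewer ES cells in a sample and less RNA per ES cell cannot be told apart in such bulk arrays. The deposited description of this probe set names Nanogpd beside Nanog, so a Nanog-like copy may contribute to the signal.

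The genes whose pattern over the 6 arrays was most like that of Nanog were Dgkeos (Pearson's r = 0.9986), Nfatc2ip (0.9979) and Rhox13 (0.9972), out of 2967 genes with a range of at least 1. With 6 arrays and so many genes, values this near 1 are a description only. Nfatc2ip stood at 12.26 and 10.66 in ki/ki, 11.09 and 11.81 in ki/+, and 10.83 and 10.74 in wild type. As for Nanog, ki/ki replicate 1 and ki/+ replicate 2 were the highest arrays.

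Sall4, the zinc finger factor, gave different answers from its probe sets. Both carry the same source accession in the platform annotation, and RefSeq lists several Sall4 transcripts, but it is not known here which of them each probe set reads. The brighter one, 1424152_at, had log2 intensities of 11.69 and 11.86 in ki/ki, 11.54 and 11.90 in ki/+, and 11.84 and 11.87 in wild type. These overlapped, and the difference from wild type was -0.08 in ki/ki (95% interval -0.50 to 0.34, limma adjusted p = 0.930) and -0.14 in ki/+ (-0.56 to 0.28, adjusted p = 0.834).

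The dimmer Sall4 probe set, 1424153_s_at, stood at 7.98 and 8.94 in ki/ki, 7.91 and 8.08 in ki/+, and 9.23 and 9.26 in wild type. All 4 knock-in arrays lay below both wild type arrays, with ki/ki replicate 2 the nearest to them. The log2 difference was -1.25 for ki/+ against wild type (SE 0.30, 95% interval -1.98 to -0.53, 0.419-fold, limma adjusted p = 0.285) and -0.79 for ki/ki against wild type (SE 0.30, -1.51 to -0.06, 0.579-fold, adjusted p = 0.525). For both knock-in genotypes together it was -1.02 (SE 0.26, limma adjusted p = 0.279), and of the 12 probe sets it had the smallest p in this comparison and in both separate comparisons with wild type. An s_at suffix marks probe sets whose probes can match more than one transcript.

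This Sall4 difference depended on which arrays set the spread. In a fit to only the ki/+ and wild type arrays (4 in all), the same -1.25 had a limma adjusted p of 0.0239, and 1282 probe sets passed. For ki/ki against wild type it was -1.27 without ki/ki replicate 2 and -0.30 without ki/ki replicate 1. The difference of both knock-in genotypes was -0.78 without ki/ki replicate 1 and -1.26 without ki/ki replicate 2. For ki/ki against ki/+ the difference was 0.47 (limma adjusted p = 0.638). That was 0.95 without ki/ki replicate 1 and -0.02 without ki/ki replicate 2. Fits without a ki/ki array left 1 array of that genotype, whose spread was taken from the other genotypes. The 18S control probe sets set the same 4 knock-in arrays apart from wild type. Their part in the Sall4 values was not tested and cannot be told apart from genotype in these arrays.

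Lin28a also split by probe set. The brighter one, 1437752_at, was at 10.81 and 11.21 in ki/ki, 11.31 and 11.10 in ki/+, and 11.35 and 11.40 in wild type, so all 4 knock-in arrays lay below wild type, ki/+ replicate 1 by 0.04. The difference was -0.36 in ki/ki (SE 0.18, 95% interval -0.81 to 0.08, limma adjusted p = 0.640) and -0.17 in ki/+ (SE 0.18, -0.61 to 0.27, adjusted p = 0.800). Single arrays moved both values: the ki/ki difference was -0.16 without ki/ki replicate 1 and -0.56 without ki/ki replicate 2, and the ki/+ difference was -0.27 without ki/+ replicate 1 and -0.07 without ki/+ replicate 2, with no limma adjusted p under 0.05. The genes most like 1437752_at over the arrays were Trh (Pearson's r = 0.988), Hes6 (0.980) and Shb (0.979), and Trh had its lowest value, 7.27, in ki/ki replicate 1 and its highest, 11.78 and 11.56, in wild type.

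The dimmer Lin28a probe set, 1421749_at, had log2 intensities of 8.10 and 9.58 in ki/ki, 9.37 and 8.09 in ki/+, and 8.08 and 7.98 in wild type. One array of each knock-in genotype was more than 2-fold above the other 4 arrays, which lay within 0.12 of each other. The difference was 0.81 for ki/ki against wild type (SE 0.56, 95% interval -0.52 to 2.15, limma adjusted p = 0.736) and 0.70 for ki/+ (SE 0.56, -0.63 to 2.04, adjusted p = 0.706). Without ki/ki replicate 2 the ki/ki difference was 0.08, and without ki/+ replicate 1 the ki/+ difference was 0.07. The mean of both Lin28a probe sets differed from wild type by 0.23 in ki/ki and 0.27 in ki/+, opposite in sign to the brighter one alone.

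This split followed arrays and not genotype labels. The genes most like 1421749_at, a probe set chosen for this search after its values were seen, were Zfp42 (Pearson's r = 0.985), Uty (0.983) and Eif2s3y (0.978). Zfp42, also known as Rex1 and used as a pluripotency marker, stood at 10.08 and 11.80 in ki/ki, 11.96 and 9.78 in ki/+, and 9.99 and 9.86 in wild type. Uty, a Y-linked gene, stood at 4.25 and 7.10 in ki/ki, 7.44 and 4.13 in ki/+, and 4.36 and 4.32 in wild type. The arrays ki/ki replicate 2 and ki/+ replicate 1 were the high ones for all of these, whereas the same arrays were the lower knock-in array of their genotype for Nanog. What these arrays share was not tested.

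**Figure D2:**
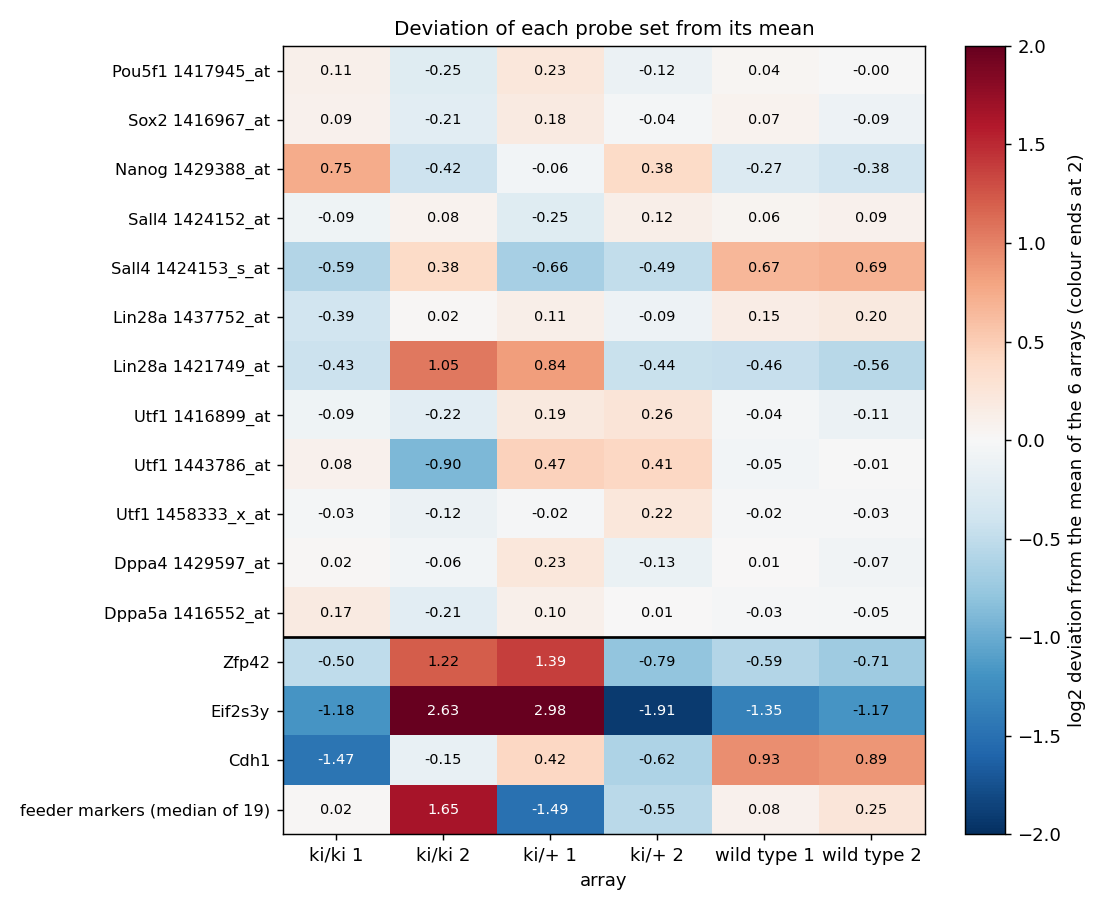
Deviation of each probe set's log2 intensity from its mean over the 6 arrays (columns), for the 12 member probe sets above the line and for Zfp42, Eif2s3y, Cdh1 and the median of 19 feeder markers below it. Lin28a 1421749_at is high in ki/ki replicate 2 and ki/+ replicate 1, as are Zfp42 and Eif2s3y, while Nanog is highest in ki/ki replicate 1 and ki/+ replicate 2, and Sall4 1424153_s_at is highest in both wild type arrays.

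Utf1, a chromatin-bound factor, was the one gene for which ki/ki and ki/+ did not overlap at any probe set. The brightest, 1416899_at, was at 11.92 and 11.79 in ki/ki, 12.20 and 12.27 in ki/+, and 11.97 and 11.89 in wild type. Both ki/+ arrays were above all others, and ki/ki overlapped wild type. The difference was -0.38 for ki/ki against ki/+ (SE 0.14, 95% interval -0.72 to -0.03, limma adjusted p = 0.466), -0.08 for ki/ki against wild type (-0.42 to 0.27, adjusted p = 0.921) and 0.30 for ki/+ against wild type (-0.04 to 0.64, adjusted p = 0.523).

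The second Utf1 probe set, 1443786_at, was at 8.40 and 7.42 in ki/ki, 8.79 and 8.73 in ki/+, and 8.27 and 8.32 in wild type. Again the ki/+ arrays were the highest, and ki/ki replicate 2 was the lowest. It differed by -0.85 between ki/ki and ki/+ (SE 0.30, 95% interval -1.57 to -0.12, limma adjusted p = 0.449). That difference was -1.34 without ki/ki replicate 1 and -0.35 without ki/ki replicate 2. Against wild type the ki/ki difference was -0.38 (limma adjusted p = 0.778). It was -0.87 without ki/ki replicate 1 but 0.11 without ki/ki replicate 2. Each of these fits left 1 ki/ki array, whose spread was taken from the other genotypes. The remaining probe set, 1458333_x_at, lay between 5.60 and 5.94 in all arrays, and differed by -0.18 between ki/ki and ki/+ (adjusted p = 0.724). An x_at suffix marks probes that may match unrelated sequences.

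Dppa4, a chromatin-associated protein that pairs with DPPA2, had log2 intensities of 11.09 and 11.01 in ki/ki, 11.30 and 10.94 in ki/+, and 11.08 and 10.99 in wild type. The genotypes overlapped. The difference from wild type was 0.01 in ki/ki (95% interval -0.40 to 0.43, limma adjusted p = 0.991) and 0.08 in ki/+ (-0.33 to 0.49, adjusted p = 0.915). Between ki/ki and ki/+ it was -0.06 (-0.48 to 0.35, adjusted p = 0.920).

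Dppa5a (ESG1), a KH domain RNA-binding protein, was at 14.33 and 13.95 in ki/ki, 14.26 and 14.17 in ki/+, and 14.14 and 14.11 in wild type. The ki/ki arrays lay on either side of wild type, and both ki/+ arrays lay just above it. The difference from wild type was 0.02 in ki/ki (95% interval -0.40 to 0.43, limma adjusted p = 0.990) and 0.09 in ki/+ (-0.33 to 0.51, adjusted p = 0.900). RefSeq lists pseudogenes of this gene as well, which the probe set may read.

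**Figure D3:**
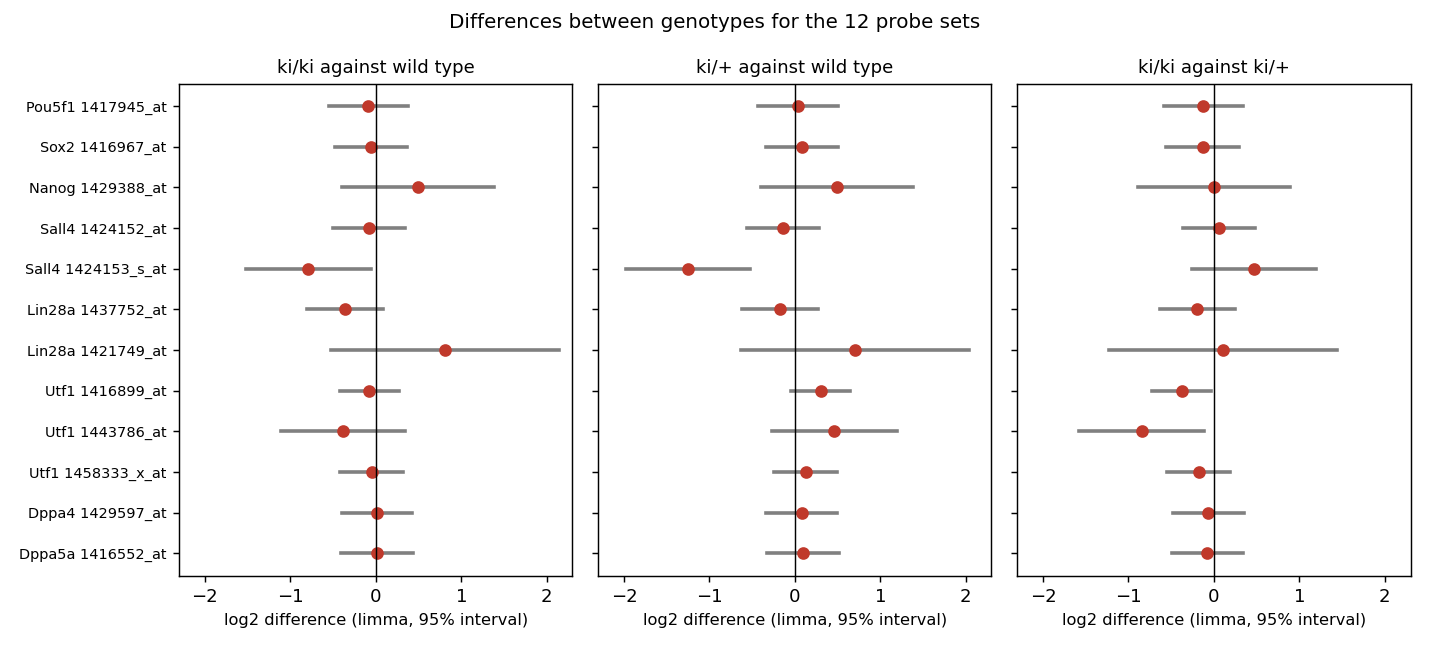
Log2 differences (x axis) of the 12 member probe sets for ki/ki against wild type, ki/+ against wild type and ki/ki against ki/+, with limma's 95% intervals as grey lines, not adjusted for the number of probe sets. Intervals that leave out 0 are those of Sall4 1424153_s_at in both comparisons with wild type and of Utf1 1416899_at and 1443786_at in ki/ki against ki/+, and none of these passed at an adjusted p of 0.05.

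Genotypes that did not overlap were common across the whole array. In ki/ki against wild type 4 of 12 member probe sets did not overlap (1 above, 3 below), or 33.3%, where 38.5% of all probe sets did not (17.3% above, 21.2% below). In ki/+ against wild type 8 of 12 did not overlap (6 above, 2 below), or 66.7%, beside 54.2% of all (28% above, 26.2% below). In ki/ki against ki/+ 3 of 12 did not overlap, all below and all of Utf1, or 25%, beside 36.1% of all (15.7% above, 20.4% below). For the 4 knock-in arrays against both wild type arrays 3 of 12 did not overlap (1 above, 2 below), or 25%, beside 19.8% of all (9.66% above, 10.2% below). They were Sall4 1424153_s_at and Lin28a 1437752_at below wild type and Lin28a 1421749_at above it, the last by a gap of 0.02.

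Across arrays the 8 genes tended to be low in one. With the brightest probe set for each gene, 5 of 8 had their lowest value in ki/ki replicate 2 (Pou5f1, Sox2, Nanog, Utf1 and Dppa5a), the array with the highest feeder marker sum, where 30.2% of 16706 genes had theirs. The highest value fell in ki/+ replicate 1 for 3 of 8 (Pou5f1, Sox2 and Dppa4), the array with the lowest feeder marker sum, where 21.2% of genes had theirs. That array also held the lowest value of 1 of 8 (Sall4), and ki/ki replicate 1 and ki/+ replicate 2 each held the highest value of 2 of 8. The part of feeder RNA in this was not tested. The summed intensity of the 8 probe sets was 53412 and 41613 in ki/ki, 51304 and 49389 in ki/+, and 47224 and 45737 in wild type.

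Partners of the core circuit, a list of 26 genes of which 24 were measured, had 0 genes passing limma's test in any of the 4 comparisons. Because 0% of all 37950 probe sets passed, this count was fixed for every list here and below, and it says nothing about the lists. The list's median log2 difference was 0.23 for ki/ki against wild type, beside -0.01 over all genes, with 16 of 24 above 0. For ki/+ against wild type it was 0.07, beside 0.03, with 15 of 24 above 0. Fgf4, a growth factor gene with a known composite OCT4 and SOX2 enhancer, was at 11.92 and 10.71 in ki/ki, 10.99 and 11.34 in ki/+, and 10.17 and 10.01 in wild type. All 4 knock-in arrays lay above wild type, by 1.23 in ki/ki (SE 0.38, limma adjusted p = 0.407) and 1.07 in ki/+ (adjusted p = 0.409).

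Prdm14, which encodes a repressor that guards naive pluripotency, was at 9.71 and 7.19 in ki/ki, 8.46 and 8.64 in ki/+, and 7.33 and 7.03 in wild type. The array ki/ki replicate 2 lay between the wild type arrays and the other 3 knock-in arrays above both, and the difference was 1.27 in ki/ki (SE 0.71, limma adjusted p = 0.671) and 1.37 in ki/+ (adjusted p = 0.559). Tbx3, a T-box factor of naive cells, was at 10.39 and 8.46 in ki/ki, 8.71 and 8.27 in ki/+, and 8.41 and 8.32 in wild type, so that ki/ki replicate 1 stood apart. Dppa3 (Stella), a maternal factor gene that marks naive cells, was at 9.87 and 10.04 in ki/ki, 10.47 and 11.40 in ki/+, and 10.99 and 10.83 in wild type. It had the largest difference of the list between ki/ki and ki/+, at -0.98 (SE 0.30, adjusted p = 0.429).

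**Figure D4:**
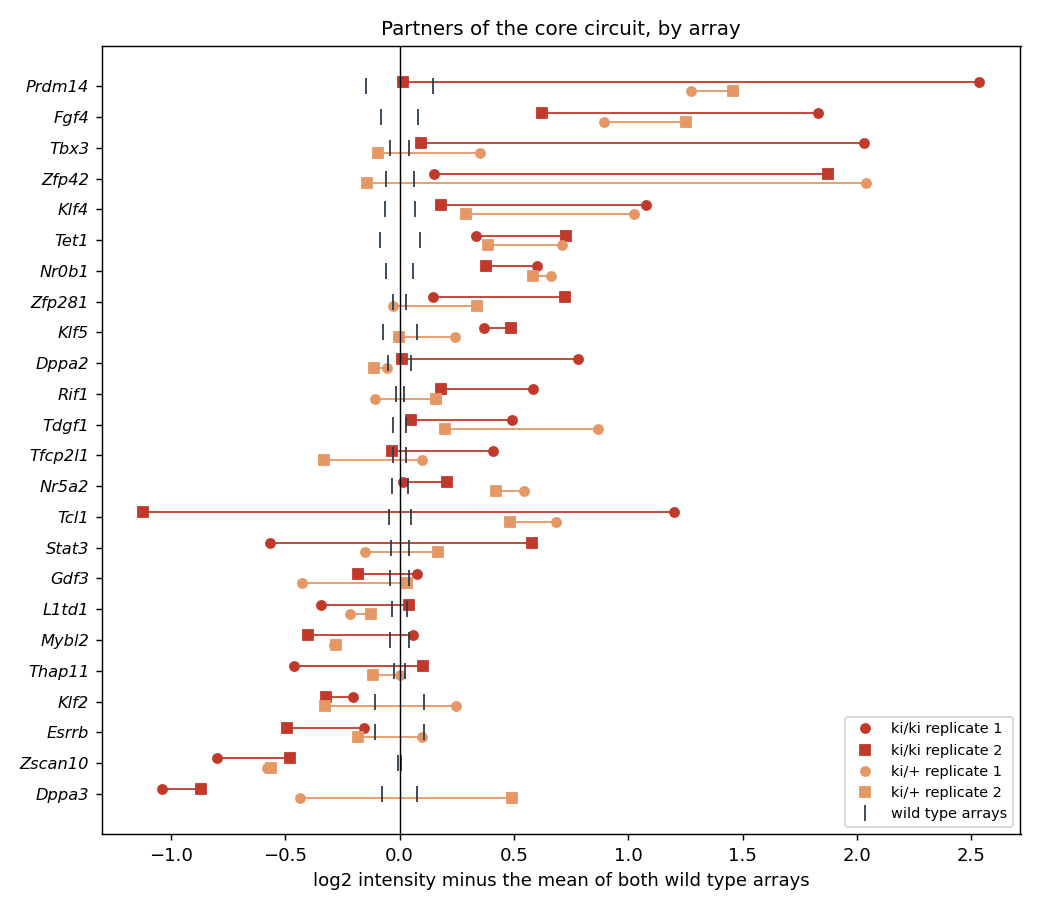
Log2 intensity of 24 partner genes of the core circuit minus the mean of both wild type arrays (x axis), with a circle for replicate 1 and a square for replicate 2 of ki/ki and ki/+, and vertical ticks for the wild type arrays. Fgf4 lies above wild type in all 4 knock-in arrays. For Fgf4, Prdm14, Tbx3, Zfp42, Tcl1 and Stat3 the ki/ki arrays lie more than 1 unit apart.

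Among known OCT4 and SOX2 target genes, 9 of 10 were measured and 0 passed in either direction in any comparison. The list shares Pou5f1, Sox2, Nanog and Utf1 with the members. Its median log2 difference was 0.13 for ki/ki and 0.30 for ki/+ against wild type, beside -0.01 and 0.03 over all genes. Lefty1, a Nodal inhibitor gene, was at 9.13 and 10.20 in ki/ki, 10.86 and 10.27 in ki/+, and 11.62 and 11.40 in wild type. Its difference was -1.85 in ki/ki (SE 0.37, limma adjusted p = 0.256) and -0.95 in ki/+ (adjusted p = 0.449), opposite in sign to Fgf4.

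Family relatives of the members (11 of 14 measured) had 0 calls and medians of -0.34 for ki/ki and -0.08 for ki/+ against wild type. Pou3f1 (OCT6), a POU factor of the primed epiblast, was at 7.67 and 8.65 in ki/ki, 8.59 and 8.83 in ki/+, and 9.99 and 9.81 in wild type. The difference was -1.73 in ki/ki (SE 0.31, limma adjusted p = 0.221) and -1.19 in ki/+ (adjusted p = 0.311). Sall2 was at 5.01 and 5.76 in ki/ki, 4.81 and 5.75 in ki/+, and 6.70 and 6.61 in wild type. Like Sall4 1424153_s_at it lay below wild type in all 4 knock-in arrays, by -1.27 in ki/ki (adjusted p = 0.369) and -1.37 in ki/+ (adjusted p = 0.307). Sall2 was dim in the knock-in arrays, not far above the log2 minimum of 4 for testing. The brighter Sall4 probe set, 1424152_at, overlapped wild type in both genotypes. Lin28b, the relative of Lin28a, had no tested probe set.

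Genes of the LIN28 and let-7 pathway (17 of 21 measured) also had 0 calls. Their median log2 difference was -0.10 for ki/ki against wild type and -0.07 for ki/+, and -0.06 for ki/ki against ki/+ beside -0.05 over all genes. Hmga2, a chromatin protein gene repressed by let-7, was at 10.47 and 11.98 in ki/ki, 8.77 and 9.81 in ki/+, and 10.29 and 10.60 in wild type. This was the array order of the feeder markers in the knock-in cells, lowest in ki/+ replicate 1 and highest in ki/ki replicate 2, and the part of feeder RNA was not tested. Its difference between ki/ki and ki/+ was 1.93 (SE 0.53, limma adjusted p = 0.429).

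Markers of the primed epiblast, itself a pluripotent state, and of differentiated lineages stood beside these values as follows. Primed epiblast genes (6 of 6 measured) had a median log2 difference of -1.59 for ki/ki and -0.80 for ki/+ against wild type, and trophectoderm genes (6 of 6) had -0.81 and -0.49. Mesoderm genes (4 of 5) had -0.18 and -0.06, neuroectoderm genes (4 of 5) had -0.40 and -0.10, and endoderm genes (5 of 5) had 0.11 and -0.03. Over the arrays the summed intensity ran from 239 to 355 for mesoderm, 318 to 491 for neuroectoderm and 206 to 269 for endoderm genes. The median intensity of single probe sets was 49.97 to 53.3, so these sums were low for lists of 4 or 5 genes. Their differences may reflect signal near the floor. In none of these lists did a gene pass limma's test. Feeder fibroblast markers had a median of 0.67 for ki/ki and -1.13 for ki/+ against wild type, with all 19 above 0 in ki/ki and all 19 below 0 in ki/+. The ki/ki arrays were unlike: the median deviation from the mean of the 6 arrays was 0.02 and 1.65, beside 0.08 and 0.25 in wild type. For ki/ki 4 of 19 (21.1%) did not overlap wild type, beside 38.5% of all probe sets. For ki/+ it was 19 of 19, beside 54.2%.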

How the data were processed

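RNA of 6 mouse ES cell samples, 2 per genotype, was hybridised to Affymetrix arrays. The authors deposited normalized intensities. Per the design text of the series they used GCRMA followed by quantile normalization, with simpleaffy for quality control and limma for testing, in versions not given in the sources used here. A linear scale was inferred from the skew of the values, whose median per array lay between 49.97 and 53.3. A second deposited table held the same intensities (largest difference 0), and 6 further columns of another series in it were not used.

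Log2 was taken of the intensities. The 64 control probe sets were left out, and a probe set was tested where its log2 value was above 4 in at least 2 arrays, which left 37950 of 45101. Symbols came from the platform annotation: 34958 probe sets had 1 symbol, 932 several and 9211 none. limma 3.58.1 in R 4.3.3 was fitted to all 6 arrays with genotype as the only term, with 3 residual degrees of freedom and a prior of 3.57, with Benjamini-Hochberg adjustment over the tested probe sets of each of 4 comparisons and a threshold of 0.05. A gene was represented by its brightest tested probe set. All member probe sets were named, likeness was searched for the 2 member genes with the widest range, and of other lists at most 3 genes per comparison were named by size of difference. The fit was tested on simulated data. The members, lists and rules were chosen with earlier results of these data known. P values measure the spread between these arrays, and their number limits the precision.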

Additional observations from a re-analysis of the deposited data

Results flagged for a closer look

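At 2 of the 3 Utf1 probe sets both ki/ki arrays lay below the wild type mean and both ki/+ arrays above it. The remaining one, 1443786_at, did not show this pattern: its ki/ki arrays were at 8.40 and 7.42, on either side of the wild type mean of 8.30, and its log2 difference of ki/ki minus ki/+ was -0.85 (limma adjusted p = 0.449). At 1416899_at the ki/ki arrays deviated from the wild type mean by -0.01 and -0.14, the ki/+ arrays deviated by 0.27 and 0.33, and the log2 difference of ki/ki minus ki/+ was -0.38 (limma adjusted p = 0.466). At 1458333_x_at the ki/ki arrays deviated by -0.01 and -0.09 and the ki/+ arrays by 0.01 and 0.25, with a difference of -0.18 (limma adjusted p = 0.724). The test of the difference itself thus passed at none of the 3 probe sets.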

How the results depend on the processing

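Leaving out single arrays moved most. For all probe sets the count passing limma was 0 with all arrays, and over the fits without 1 array it ran from 0 to 1796 (ki/ki against wild type), 0 to 1282 (ki/+ against wild type), 0 to 4996 (ki/ki against ki/+) and 0 to 2027 (both knock-in genotypes against wild type). The counts of member probe sets ran from 0 to 1, 0 to 1, 0 to 2 and 0 to 2. Counts above 0 arose without an array of ki/ki, where the remaining array of that genotype was assumed to have the spread of the others. With only the 4 arrays compared, 1282 probe sets and 1 member (Sall4 1424153_s_at) passed for ki/+ against wild type. The trended and robust prior gave 6 probe sets for both knock-in genotypes and the replicate block 2, with 0 members under each, and the replicate block changed no other count. Across probe sets the replicate differences of ki/ki correlated by -0.0394 with those of ki/+ and by 0.0575 with those of wild type. Those of ki/+ and wild type correlated by 0.144. That 2 of 6 arrays lay closer to their own number in both other genotypes follows from the signs of these values. Such weak correlations cannot decide whether equal replicate numbers mark paired arrays, and the main fit used no pairing. A further quantile normalization turned the Nanog difference of ki/ki against ki/+ to -0.0099, and the mean of the probe sets of a gene turned that of Lin28a to 0.23, 0.27 and 0.25 for ki/ki, ki/+ and both against wild type; the dimmer probe set has the opposite sign. No filter, a filter at log2 above 6 and 32 added before log2 left every member gene's direction and every count as they were. Small differences changed sign in fits without 1 array. For ki/ki against wild type the log2 difference ran, for Pou5f1 from -0.27 to 0.088, Sox2 from -0.20 to 0.10, Nanog from -0.087 to 1.08, Sall4 from -0.17 to 0.0015, Dppa4 from -0.030 to 0.058, Dppa5a from -0.18 to 0.21. For ki/+ against wild type the log2 difference ran, for Pou5f1 from -0.14 to 0.21, Sox2 from -0.029 to 0.19, Sall4 from -0.32 to 0.043, Dppa4 from -0.10 to 0.26. For ki/ki against ki/+ the log2 difference ran, for Pou5f1 from -0.30 to 0.053, Sox2 from -0.28 to 0.014, Nanog from -0.58 to 0.59, Sall4 from -0.13 to 0.24, Lin28a from -0.39 to 0.0084, Dppa4 from -0.24 to 0.12, Dppa5a from -0.27 to 0.12. For both knock-in genotypes against wild type the log2 difference ran, for Pou5f1 from -0.11 to 0.062, Sox2 from -0.070 to 0.10, Dppa4 from -0.044 to 0.14, Dppa5a from -0.043 to 0.15.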
